A study of Mus musculus with 34 samples.

Results

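Pdgfra, Cspg4, Gpr17, Olig1, Olig2, Sox10, Nkx2-2 and Sox11 are genes used to follow oligodendrocyte precursor cells and their lineage. They were followed in spinal cord after injury in mice with and without trkB.T1. Each was read from the probe set annotated with its symbol, taking the one with the highest mean over all arrays where a gene had several. All 8 were on the array, out of 18193 genes with a symbol of their own, and all 8 were among the 11993 genes with enough signal to be tested.

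Cord tissue came from trkB.T1 null mice (KO) and wild-type mice (WT). Ntrk2 encodes TrkB, a receptor for brain-derived neurotrophic factor, and trkB.T1 is its short form without the kinase. The KO groups had 4 arrays after sham surgery, which opened the site but left the cord intact, 4 arrays 1 day after injury, 5 at day 3 and 4 at day 7. The WT groups had 4 sham arrays, 5 arrays at day 1, 4 at day 3 and 4 at day 7. Each of the 34 arrays gave log2 values made with GCRMA, and precision is limited by how many arrays there are. Age, strain and injury level are not in the labels, nor is it said whether arrays come from different animals, so p-values measure the spread between samples, which may be technical.

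Oligodendrocyte precursor cells are the dividing glia from which myelinating oligodendrocytes arise throughout life. They carry the PDGF receptor Pdgfra and the proteoglycan NG2, the product of Cspg4, and they lose both as they differentiate. Olig2, Olig1, Sox10 and Nkx2-2 are transcription factors of the lineage, and Gpr17 is a G protein-coupled receptor that appears for a short time between precursor and myelinating cell. After spinal cord injury, precursors near the lesion are known to divide, and markers of the lineage are shared with other cells: Cspg4 with pericytes, Pdgfra with fibroblasts, Sox10 with Schwann cells and Sox11 with immature and injured neurons.

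Some arrays stood apart and touch the results. Ntrk2 was read here from the probe set with the most negative difference of KO from WT cords at day 1. In it the library labelled KO sham replicate 2 read 8.59, against 2.83 in every other KO array. WT arrays read 8.65 to 9.92, so this library went against its label. WT day 3 replicate 2 had the lowest array weight in limma, 0.084, and its mean over 21 other precursor genes was 8.41, where the other 3 arrays of its group lay between 8.91 and 9.01. The next lowest weights were 0.135 and 0.183 in KO day 3 replicates 3 and 4, where all other arrays had at least 0.563, and their neuron markers averaged 10.58 and 10.76, beside 11.57 to 11.89 in the other KO day 3 arrays. The 7 caudal Hox genes averaged 8.58 to 8.83 in KO sham arrays and 6.70 to 7.39 in WT sham arrays. All 7 were lower than sham at day 3 in KO cords, and 6 without KO sham replicate 2, while in WT cords 3 were higher and 2 lower. Over all genes, 38.8% were lower at that time in KO cords, and 29.5% were higher and 37.4% lower in WT cords. Of 10 skeletal muscle markers, 10 were lower on each of days 1 and 7 in KO cords, against 1 in WT cords, and without KO sham replicate 2 these KO counts were 5 and 8. With all arrays, 27.3% and 31% of all genes were lower on days 1 and 7 in KO cords, and 32.5% and 33.3% in WT cords. Muscle means lay between 7.83 and 10.53 in KO sham arrays and between 3.96 and 8.93 in WT sham arrays. At day 3 they spread from 4.90 to 13.26 in KO arrays and from 6.88 to 9.61 in WT arrays. The part of these moves in the KO injury results was not tested. Mature myelin genes averaged 12.24 to 12.35 in KO sham arrays and 12.24 to 12.46 in WT sham arrays. Neuron markers averaged 12.50 to 12.62 in KO sham arrays and 12.51 to 12.58 in WT sham arrays.

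Of the 8 members, 5 have a promoter in the RefSeq table for GRCm38.p6, and 3 of them are shown here because their transcripts rose after injury in both genotypes. Each runs from 250 bases before to 50 bases after the gene's start, 5′ to 3′ on the gene's strand. Capitals mark E-boxes, CANNTG, the motif read by Olig1, Olig2 and other basic helix-loop-helix factors. The Pdgfra window is chr5:75152001-75152300 on the plus strand, the Cspg4 window is chr9:56864854-56865153 on the plus strand, and the Sox11 window is chr12:27342669-27342968 on the minus strand.
Pdgfra: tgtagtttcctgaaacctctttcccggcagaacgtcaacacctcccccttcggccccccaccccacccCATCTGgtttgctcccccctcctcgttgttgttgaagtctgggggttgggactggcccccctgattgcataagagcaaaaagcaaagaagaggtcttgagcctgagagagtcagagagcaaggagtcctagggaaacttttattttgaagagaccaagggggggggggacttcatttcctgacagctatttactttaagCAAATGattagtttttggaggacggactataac
Cspg4: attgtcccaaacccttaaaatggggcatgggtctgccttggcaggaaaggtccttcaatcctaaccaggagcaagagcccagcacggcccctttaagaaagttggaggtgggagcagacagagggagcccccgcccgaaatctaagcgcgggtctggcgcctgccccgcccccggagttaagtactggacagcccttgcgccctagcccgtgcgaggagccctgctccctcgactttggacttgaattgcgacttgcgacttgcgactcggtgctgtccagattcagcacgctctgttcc
Sox11: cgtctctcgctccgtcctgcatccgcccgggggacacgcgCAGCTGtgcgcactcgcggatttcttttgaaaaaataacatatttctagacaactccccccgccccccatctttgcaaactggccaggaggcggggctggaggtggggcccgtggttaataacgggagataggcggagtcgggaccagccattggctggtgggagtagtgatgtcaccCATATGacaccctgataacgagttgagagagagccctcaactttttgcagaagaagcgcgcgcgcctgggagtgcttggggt
Pdgfra and Sox11 each held 2 E-boxes, and Cspg4 held none. The E-box reads the same on both strands and occurs in 72.3% of 32851 promoters of this length, so these matches describe the letters and nothing more. Among the members, the Olig2 window held 1 SOX motif, ACAATG or CATTGT on the other strand, which 12.6% of promoters hold. The Nkx2-2 window held 3 E-boxes and 1 NKX2 motif, CACTTNA or TNAAGTG, which 11.5% of promoters hold, and that NKX2 match overlaps an E-box. Olig1, Sox10 and Gpr17 are named without a sequence.

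Injury moved Cspg4 and Sox11 most steadily, while the lineage transcription factors moved less. Cspg4 and Pdgfra were higher at days 3 and 7 in both genotypes, Sox11 was higher at every time in both, and Gpr17 was lower at day 1 in both. The Pdgfra calls at day 7 were lost in both genotypes when the mean of all its probe sets was used. No member passed the test between KO and WT at any time. In this bulk tissue, a change in the number of cells of a type and a change in RNA per cell cannot be told apart.

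**Figure D1:**
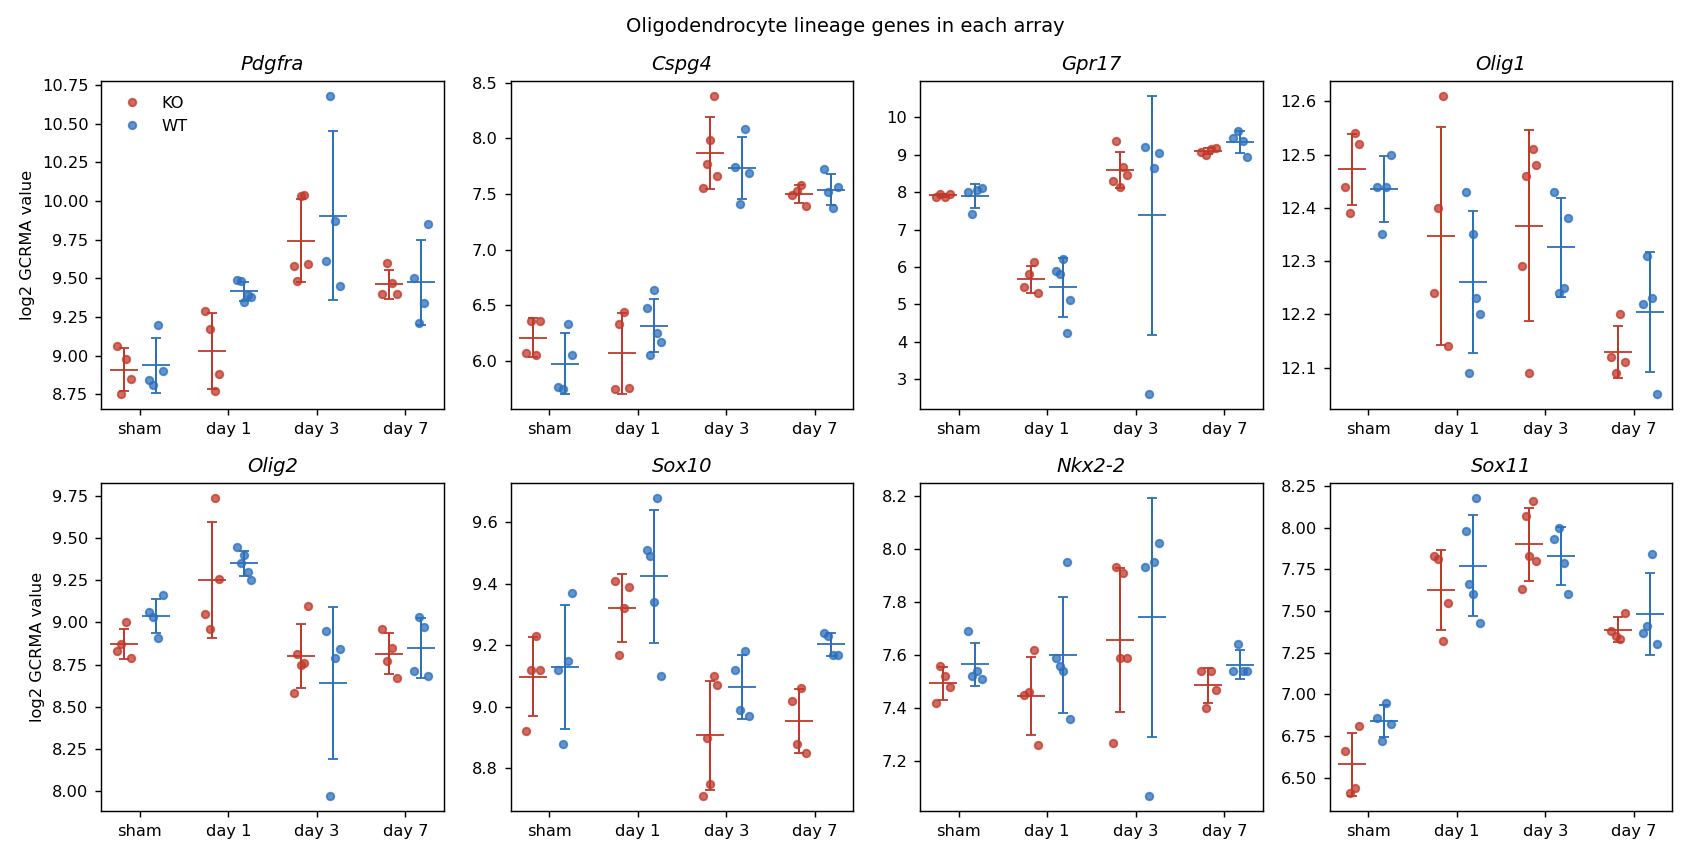
Log2 GCRMA value of each member in every array by time, KO in red left of WT in blue, with the group mean and SD as a horizontal line and bar, and a separate vertical scale for each gene. Cspg4 separates days 3 and 7 from sham and day 1 in both genotypes, and the single low Gpr17 point at 2.59 is WT day 3 replicate 2.

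Against KO sham, 2 of 8 members rose and 1 fell on day 1, where 23.7% of all genes tested rose and 27.3% fell (51.1% in all). On day 3, 3 rose and 0 fell, where 30.9% of all genes rose and 38.8% fell (69.7% in all). On day 7, 3 rose and 1 fell, where 23.5% rose and 31% fell (54.5% in all). Against WT sham, 3 members rose and 1 fell on day 1, where 27.1% of all genes rose and 32.5% fell (59.5% in all). On day 3, 3 rose and 1 fell beside 29.5% and 37.4% of all genes (66.9% in all), and on day 7, 3 rose and 1 fell beside 25.8% and 33.3% (59.1% in all). With all arrays, the share of members that passed was below the share of all genes in each of these 6 comparisons. The counts by themselves thus set the lineage genes apart in none. At day 7 in KO cords, 4 of 8 passed without KO sham replicate 2, where 48.8% of all genes did. Without WT day 3 replicate 2, 5 of 8 passed there, where 58.6% of all genes did. In these fits the share of members was slightly above that of all genes. Arrays of injured and sham cord did not overlap for 2, 4 and 5 of 8 members on days 1, 3 and 7 in KO cords, where the shares of all genes were 55.5%, 60.8% and 62.6%. In WT cords this held for 4, 3 and 5 of 8, where the shares were 53.2%, 57.5% and 57.5%.

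The proteoglycan gene Cspg4 made the largest sustained rise among the members. In KO cords its log2 values were 6.07, 6.36, 6.05 and 6.36 in sham arrays, 5.75, 6.33, 6.44 and 5.76 in day 1 arrays, 7.55, 7.77, 7.98, 8.38 and 7.66 in day 3 arrays, and 7.49, 7.53, 7.58 and 7.39 in day 7 arrays. In WT cords they were 5.77, 5.75, 6.33 and 6.05 in sham arrays, 6.48, 6.05, 6.64, 6.25 and 6.17 in day 1 arrays, 7.74, 7.41, 8.08 and 7.69 in day 3 arrays, and 7.72, 7.52, 7.37 and 7.56 in day 7 arrays. Every array of days 3 and 7 lay above every sham and day 1 array, with no overlap between these times in either genotype. At day 3 Cspg4 rose 3.15-fold in KO cords (log2 difference 1.66 ± 0.17, where ± is the standard error, adjusted p = 1.18e-09 in limma) and 3.37-fold in WT cords (1.75 ± 0.17, adjusted p = 1.57e-09). Without KO day 3 replicates 3 and 4, which read 7.98 and 8.38, the KO rise was 1.45 ± 0.17 (adjusted p = 5.97e-08 in limma). The day 3 difference of KO from WT cords was then -0.07 ± 0.17, beside 0.14 ± 0.17 with all arrays. At day 7 the rise was 2.44-fold in KO cords (1.29 ± 0.17, adjusted p = 6.4e-07) and 2.95-fold in WT cords (1.56 ± 0.17, adjusted p = 1.7e-08). At day 1 the difference from sham was -0.14 ± 0.17 in KO cords and 0.34 ± 0.17 in WT cords, and neither passed. In order of mean level the groups ran from WT sham (5.98) through KO day 1 (6.07), KO sham (6.21), WT day 1 (6.32), KO day 7 (7.50), WT day 7 (7.54) and WT day 3 (7.73) to KO day 3 (7.87). Only the step between WT day 1 and KO day 7 exceeded the pooled SD of 0.25. The pooled SD is the spread of single arrays, so such steps describe the order of the groups and test no difference. The second Cspg4 probe set also rose at days 3 and 7 in both genotypes, by 1.15 and 0.61 in KO cords and by 1.02 and 0.65 in WT cords.

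Pdgfra, the receptor through which PDGF-A drives precursor division, rose less than Cspg4. In KO cords it read 9.06, 8.75, 8.98 and 8.85 in sham arrays, 9.29, 9.17, 8.77 and 8.88 in day 1 arrays, 9.58, 9.48, 10.03, 10.04 and 9.59 in day 3 arrays, and 9.40, 9.60, 9.47 and 9.40 in day 7 arrays. In WT cords it read 8.84, 8.81, 9.20 and 8.90 in sham arrays, 9.49, 9.48, 9.35, 9.39 and 9.38 in day 1 arrays, 9.61, 10.68, 9.87 and 9.45 in day 3 arrays, and 9.50, 9.21, 9.34 and 9.85 in day 7 arrays. All arrays of days 3 and 7 lay above their sham arrays, and at day 1 this held in WT cords but not in KO cords. The rise was 1.78-fold at day 3 in KO cords (0.83 ± 0.17, adjusted p = 9.3e-05 in limma) and 1.96-fold in WT cords (0.97 ± 0.18, adjusted p = 3.48e-05). Without WT day 3 replicate 2, whose 10.68 was the highest Pdgfra value of all, the WT rise at day 3 was 0.71 ± 0.15 (adjusted p = 0.000171). The highest KO values at day 3, 10.03 and 10.04, came from KO day 3 replicates 3 and 4, and without both the KO rise was 0.64 ± 0.18 (adjusted p = 0.00412). At day 7 Pdgfra rose 1.47-fold in KO cords (0.55 ± 0.18, adjusted p = 0.011) and 1.45-fold in WT cords (0.54 ± 0.18, adjusted p = 0.0121). At day 1 it rose in WT cords (0.48 ± 0.17, adjusted p = 0.0175), whereas the KO difference was 0.12 ± 0.18 (adjusted p = 0.608). The 2 day 1 differences are not shown to differ between genotypes, since the test of that difference gave -0.36 ± 0.25 (adjusted p = 0.919).

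Some Pdgfra calls rest on single arrays or on the probe set. The WT call at day 1 was lost without WT sham replicate 2 (0.44, adjusted p = 0.0501), and the WT call at day 7 without WT day 7 replicate 4 (0.41, adjusted p = 0.065). A second, dimmer Pdgfra probe set rose only at day 3, by 0.99 ± 0.22 in KO cords and 0.65 ± 0.23 in WT cords. In order of mean level the groups ran KO sham (8.91), WT sham (8.94), KO day 1 (9.03), WT day 1 (9.42), KO day 7 (9.46), WT day 7 (9.47), KO day 3 (9.74) and WT day 3 (9.91). The steps between KO day 1 and WT day 1 and between WT day 7 and KO day 3 exceeded the pooled SD of 0.26, and the other neighbours lay within it.

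Sox11, a SoxC transcription factor of immature neural cells, rose at all 3 times in both genotypes. In KO cords it read 6.66, 6.41, 6.44 and 6.81 in sham arrays, 7.83, 7.81, 7.32 and 7.55 in day 1 arrays, 7.63, 8.07, 7.83, 8.16 and 7.80 in day 3 arrays, and 7.38, 7.35, 7.33 and 7.49 in day 7 arrays. In WT cords it read 6.86, 6.72, 6.95 and 6.82 in sham arrays, 7.98, 7.66, 7.60, 8.18 and 7.43 in day 1 arrays, 7.93, 8.0, 7.79 and 7.60 in day 3 arrays, and 7.37, 7.41, 7.84 and 7.30 in day 7 arrays. Each injured array lay above all sham arrays of its genotype. In KO cords the rise over sham was 2.07-fold, 2.5-fold and 1.75-fold on days 1, 3 and 7 (log2 1.05 ± 0.15, 1.32 ± 0.14 and 0.81 ± 0.15, largest adjusted p = 4.14e-05 in limma). In WT cords it was 1.91-fold, 1.99-fold and 1.56-fold at the same times (0.93 ± 0.14, 0.99 ± 0.15 and 0.64 ± 0.15, largest adjusted p = 0.000473). Sox11 has 5 further probe sets, and all 5 rose at days 1 and 3 in both genotypes, with differences of 0.65 to 1.18 in KO cords and 0.70 to 1.09 in WT cords. At day 7, 4 of the 5 rose in KO cords and 3 of the 5 in WT cords. By mean level the groups ran KO sham (6.58), WT sham (6.84), KO day 7 (7.39), WT day 7 (7.48), KO day 1 (7.63), WT day 1 (7.77), WT day 3 (7.83) and KO day 3 (7.90). The steps between KO sham and WT sham and between WT sham and KO day 7 exceeded the pooled SD of 0.21, and the others did not. The sham difference between the genotypes, -0.26 ± 0.15, did not pass in limma.

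Gpr17, the receptor of the transition from precursor to myelinating cell, fell on day 1 in both genotypes. In KO cords it read 7.88, 7.95, 7.88 and 7.95 in sham arrays, 5.45, 5.80, 6.12 and 5.29 in day 1 arrays, 8.30, 9.37, 8.15, 8.68 and 8.45 in day 3 arrays, and 9.07, 8.99, 9.16 and 9.19 in day 7 arrays. In WT cords it read 8.0, 7.41, 8.07 and 8.11 in sham arrays, 5.89, 5.81, 6.22, 4.23 and 5.11 in day 1 arrays, 9.21, 2.59, 8.66 and 9.04 in day 3 arrays, and 9.46, 9.63, 9.36 and 8.93 in day 7 arrays. Day 1 arrays lay below every sham array, and the arrays of days 3 and 7 lay above it, except WT day 3 replicate 2, which at 2.59 was not well above background. At day 1 Gpr17 fell 4.76-fold in KO cords (log2 -2.25 ± 0.79, adjusted p = 0.0189 in limma) and 5.45-fold in WT cords (-2.45 ± 0.75, adjusted p = 0.00641).

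The later Gpr17 differences turn on that 1 array. With all arrays, the difference from sham was 0.67 ± 0.75 at day 3 and 1.18 ± 0.79 at day 7 in KO cords, and -0.52 ± 0.79 and 1.45 ± 0.79 in WT cords, and none passed. Since all groups share 1 estimate of spread, the low array widened every Gpr17 error, KO groups included. Without WT day 3 replicate 2 the errors fell to between 0.28 and 0.32, and all 4 differences passed. They were then 0.67 ± 0.28 at day 3 (adjusted p = 0.031) and 1.18 ± 0.29 at day 7 (adjusted p = 0.00117) in KO cords. In WT cords they were 1.07 ± 0.32 at day 3 (adjusted p = 0.0043) and 1.45 ± 0.29 at day 7 (adjusted p = 0.000126), so the WT day 3 difference changed sign. The day 1 falls stayed at -2.25 ± 0.29 in KO cords and -2.45 ± 0.28 in WT cords. In order of mean level over all arrays the groups ran WT day 1 (5.45), KO day 1 (5.66), WT day 3 (7.38), WT sham (7.90), KO sham (7.92), KO day 3 (8.59), KO day 7 (9.10) and WT day 7 (9.35). Only the step between KO day 1 and WT day 3 exceeded the pooled SD of 1.16.

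**Figure D2:**
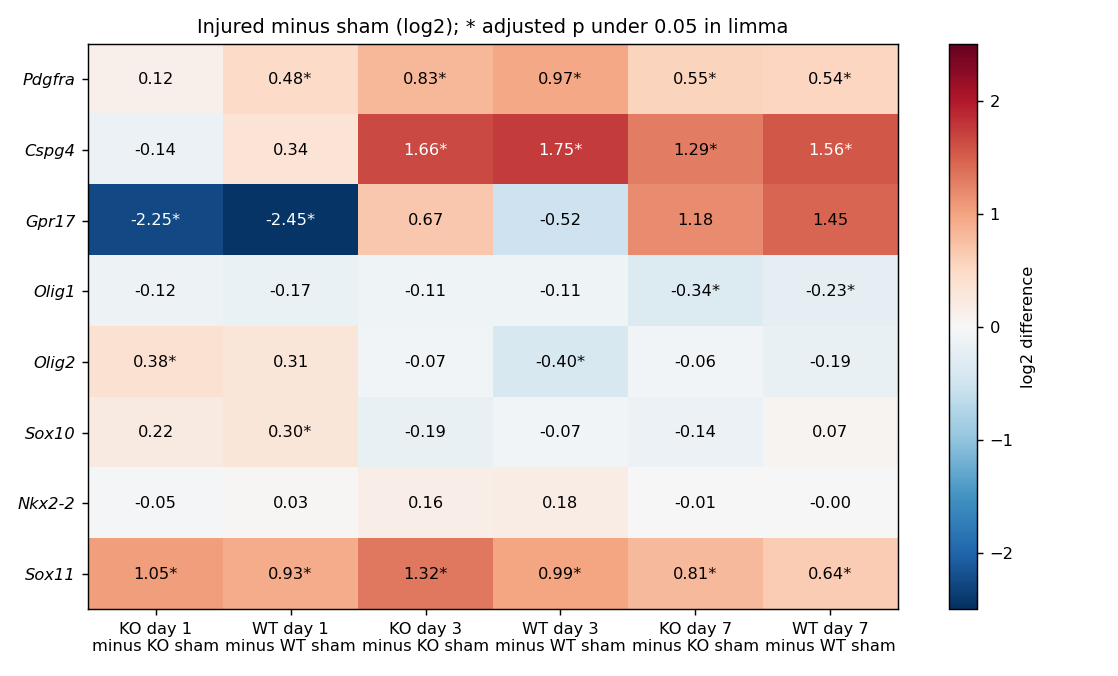
Log2 difference of injured from sham cord of the same genotype for each member (rows), KO left of WT at each time (columns), with colour for size and an asterisk where the adjusted p in limma was under 0.05. Cspg4, Pdgfra and Sox11 are positive at days 3 and 7 in both genotypes, and Gpr17 is at -2.25 in KO cords and -2.45 in WT cords at day 1.

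The group means of the lineage transcription factors Olig1, Olig2, Sox10 and Nkx2-2 spanned less than those of Pdgfra, Cspg4, Gpr17 and Sox11. From lowest to highest they spanned 0.34, 0.71, 0.52 and 0.30 in turn, beside pooled SDs of 0.13, 0.23, 0.15 and 0.22. The Olig2 span includes WT day 3 replicate 2. No step between neighbouring group means exceeded the pooled SD of its gene, which does not bound the whole change. Olig1, a helix-loop-helix factor that oligodendrocytes keep as they mature, fell at day 7 only. Its day 7 values were 12.12, 12.09, 12.20 and 12.11 in KO cords, against 12.44, 12.39, 12.54 and 12.52 in KO sham, and 12.22, 12.31, 12.23 and 12.05 in WT cords, against 12.44, 12.35, 12.44 and 12.50 in WT sham. The day 7 arrays lay below all sham arrays in both genotypes. Olig1 fell by 0.34 ± 0.09 in KO cords (adjusted p = 0.00253 in limma) and by 0.23 ± 0.09 in WT cords (adjusted p = 0.0315). The WT call was lost when WT day 7 replicate 4 was left out (-0.18, adjusted p = 0.122), and likewise without WT sham replicate 1, 3 or 4 (adjusted p = 0.0569, 0.0556 and 0.0771). Mean Olig1 levels ran KO day 7 (12.13), WT day 7 (12.20), WT day 1 (12.26), WT day 3 (12.33), KO day 1 (12.35), KO day 3 (12.37), WT sham (12.44) and KO sham (12.47).

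Olig2, the factor that specifies the lineage, was highest at day 1 in both genotypes. It read 9.05, 8.96, 9.74 and 9.26 in KO day 1 arrays, against 8.83, 8.87, 9.0 and 8.79 in KO sham arrays. It read 9.45, 9.35, 9.40, 9.30 and 9.25 in WT day 1 arrays, against 9.06, 9.03, 8.91 and 9.16 in WT sham arrays. The KO groups overlapped and the WT groups did not. The KO rise passed (0.38 ± 0.16, adjusted p = 0.0442 in limma), while the WT difference of 0.31 ± 0.15 did not (adjusted p = 0.0713). The KO call was lost without KO sham replicate 2, the library that went against its label (0.38, adjusted p = 0.0733). It was also lost without KO day 1 replicate 3 (0.22, adjusted p = 0.237) or replicate 4 (0.37, adjusted p = 0.0734), and without KO sham replicate 1 (adjusted p = 0.082) or replicate 4 (adjusted p = 0.0931). At day 3 Olig2 fell in WT cords (-0.40 ± 0.16, adjusted p = 0.0255). That call rested on WT day 3 replicate 2, at 7.97 beside 8.79 to 8.95 in the other arrays, and without it the difference was -0.18 ± 0.13 (adjusted p = 0.23). It was also lost without WT sham replicate 4 (-0.36, adjusted p = 0.0655). With the day 3 array left out, the WT day 1 difference passed instead (0.31 ± 0.11, adjusted p = 0.0186). Mean Olig2 levels ran WT day 3 (8.64), KO day 3 (8.80), KO day 7 (8.81), WT day 7 (8.85), KO sham (8.87), WT sham (9.04), KO day 1 (9.25) and WT day 1 (9.35).

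Sox10, the factor that switches on myelin genes, was also highest at day 1. Its values were 9.41, 9.17, 9.32 and 9.39 in KO day 1 arrays, against 8.92, 9.12, 9.23 and 9.12 in KO sham arrays, and 9.51, 9.49, 9.34, 9.68 and 9.10 in WT day 1 arrays, against 9.12, 8.88, 9.15 and 9.37 in WT sham arrays. The groups overlapped in both genotypes. The WT rise passed (0.30 ± 0.10, adjusted p = 0.0138 in limma) and the KO difference of 0.22 ± 0.11 did not (adjusted p = 0.0801). The WT call was lost without WT day 1 replicate 4 (0.23, adjusted p = 0.0549) or WT sham replicate 2 (0.21, adjusted p = 0.0878), and the second Sox10 probe set passed in no injury comparison. Mean Sox10 levels ran KO day 3 (8.91), KO day 7 (8.95), WT day 3 (9.06), KO sham (9.10), WT sham (9.13), WT day 7 (9.20), KO day 1 (9.32) and WT day 1 (9.42).

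Nkx2-2, a homeodomain factor of differentiating precursors, passed in none of the 6 injury comparisons. Its values lay between 7.26 and 7.93 in KO arrays, and between 7.36 and 8.02 in WT arrays other than WT day 3 replicate 2. That array read 7.07, while the other 3 WT arrays of day 3 read 7.93, 7.95 and 8.02, above all WT sham arrays. The WT difference at day 3 was 0.18 ± 0.15 with all arrays (adjusted p = 0.303 in limma), and without that array Nkx2-2 rose by 0.40 ± 0.12 (adjusted p = 0.0043). The KO difference at day 3 was 0.16 ± 0.14 and did not pass with or without it. Mean levels ran from 7.45 in KO day 1 to 7.74 in WT day 3.

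**Figure D3:**
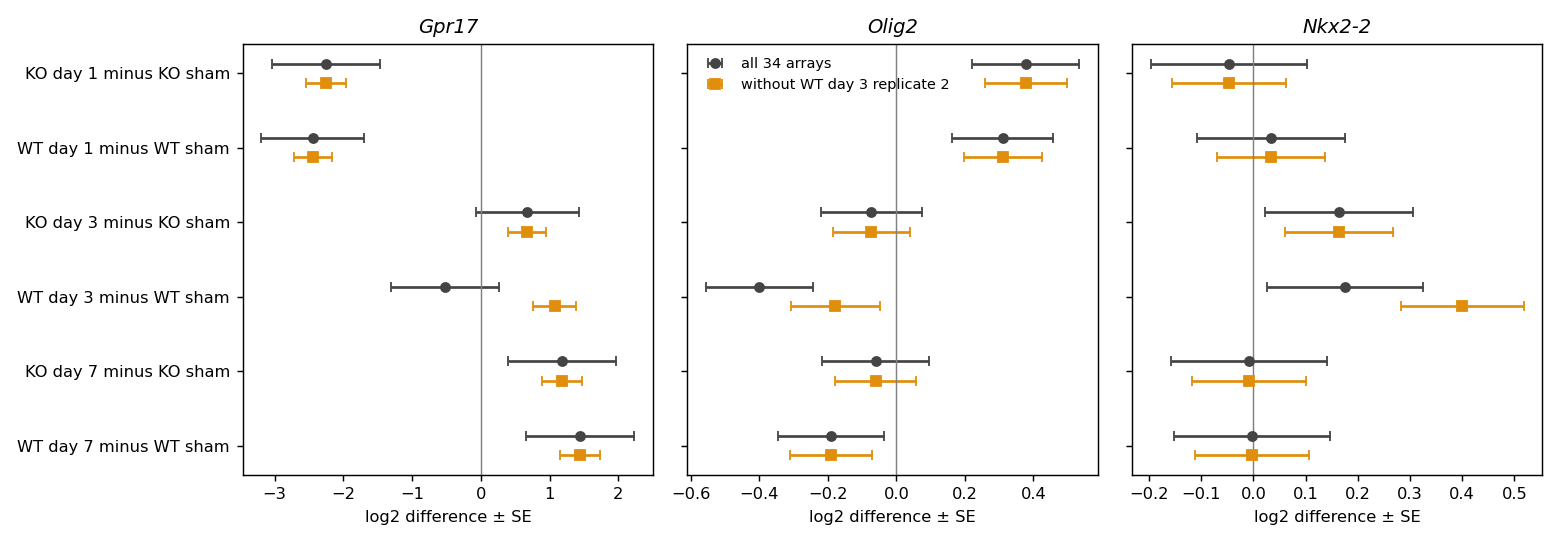
Log2 difference from sham with its SE for Gpr17, Olig2 and Nkx2-2, KO above WT at each time, over all 34 arrays (circles) and without WT day 3 replicate 2 (squares). Leaving that array out shortens the Gpr17 bars from between 0.75 and 0.79 to between 0.28 and 0.32 and moves the WT day 3 value from -0.52 to 1.07.

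Between days, the members moved mainly from day 1 to day 3. In KO cords 3 of 8 rose and 2 fell, where 23.5% of all genes rose and 31% fell (54.5% in all). Cspg4 (1.80 ± 0.17), Pdgfra (0.72 ± 0.17) and Gpr17 (2.93 ± 0.75) were higher at day 3 than at day 1, and Olig2 (-0.45 ± 0.15) and Sox10 (-0.41 ± 0.10) were lower. In WT cords 3 of 8 rose and 2 fell, where 15.4% of all genes rose and 17.3% fell (32.6% in all). The differences were 1.41 ± 0.17 for Cspg4, 0.49 ± 0.17 for Pdgfra, 1.93 ± 0.75 for Gpr17, -0.71 ± 0.15 for Olig2 and -0.36 ± 0.10 for Sox10. The 3 surface genes were thus higher and 2 of the transcription factors lower at day 3 than at day 1 in both genotypes.

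The WT step from day 1 to day 3 was fragile for Gpr17 and Pdgfra. The Gpr17 call (adjusted p = 0.048 in limma) was lost in 30 of 34 fits that each left out 1 array, and without WT day 3 replicate 2 the step was 3.52 ± 0.30 (adjusted p = 5.15e-10). The Pdgfra call (adjusted p = 0.0288) was lost without that array (0.23 ± 0.14, adjusted p = 0.216), without WT day 1 replicate 3 (0.47, adjusted p = 0.0548) and without WT day 1 replicate 5 (0.48, adjusted p = 0.051). In KO cords, the Olig2 step was lost without KO day 1 replicate 3 (-0.29, adjusted p = 0.098) and without both KO day 3 replicates 3 and 4 (-0.42, adjusted p = 0.0541).

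From day 3 to day 7, 2 of 8 members passed in KO cords, both lower, where 16.6% of all genes fell and 19.3% rose (35.9% in all). They were Sox11 (-0.51 ± 0.14, adjusted p = 0.00604 in limma) and Olig1 (-0.24 ± 0.09, adjusted p = 0.0342), of which the Olig1 call was lost without any 1 of KO day 3 replicates 2, 4 and 5 and KO day 7 replicates 1, 2 and 4 (adjusted p from 0.0642 to 0.0981). The Sox11 call was lost without both KO day 3 replicates 3 and 4 (-0.44, adjusted p = 0.0582). In WT cords 0 of 8 passed in limma, 3 of 8 had an unadjusted p under 0.05, and 23.1% of all genes passed. The WT differences included -0.43 ± 0.18 for Pdgfra, 1.97 ± 0.79 for Gpr17 and -0.35 ± 0.15 for Sox11.

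Between genotypes no member passed in limma. In sham cords 0 of 8 passed, where 0.0667% of all genes passed, and none had an unadjusted p under 0.05. At day 1 the same comparison called 0 of 8 beside 0.859% of all genes, with 1 of 8 under 0.05 unadjusted. At days 3 and 7 it called 0 of 8 beside 0.0334% of all genes at each time, with 0 and 1 of 8 under 0.05 unadjusted. The test of whether injury moved a member differently in KO than in WT cords called 0 of 8 at days 1, 3 and 7, with none under 0.05 unadjusted, beside 0.142%, 0% and 0.00834% of all genes.

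In 2 members KO and WT arrays did not overlap at 1 time. No member showed this in sham cords, where 5.07% of all genes did, or at day 3, where 0.792% did. At day 1 Pdgfra read 8.77 to 9.29 in KO cords and 9.35 to 9.49 in WT cords, a difference of -0.39 ± 0.17 (adjusted p = 0.442 in limma), and 5.01% of all genes showed no overlap there. At day 7 Sox10 read 8.85 to 9.06 in KO cords and 9.17 to 9.24 in WT cords, a difference of -0.25 ± 0.11 (adjusted p = 0.989), where 8.73% of all genes showed no overlap. Leaving out Gpr17, the 95% confidence intervals of KO minus WT reached from -0.56 to 0.59 in sham cords, -0.74 to 0.26 at day 1, -0.51 to 0.48 at day 3 and -0.47 to 0.36 at day 7. For Gpr17 they were wider, -1.60 to 1.63 in sham cords, -1.32 to 1.74 at day 1, -0.32 to 2.74 at day 3 and -1.86 to 1.37 at day 7. These Gpr17 intervals rest on WT day 3 replicate 2. Without it the Gpr17 difference between KO and WT cords was -0.38 ± 0.30 at day 3, where it was 1.21 ± 0.75 with all arrays, so its sign turned. Its other standard errors were then 0.28 to 0.29, beside 0.75 to 0.79 with all arrays, and no member passed between genotypes. Nkx2-2 at day 3 also moved, from -0.08 ± 0.14 with all arrays to -0.31 ± 0.11 without that array (adjusted p = 0.618 in limma). These data therefore do not show that the genotypes are alike, only that with all arrays the intervals of the other 7 members stayed within those bounds.

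Across arrays of the same group, some members deviated together, which is given as a description over 34 arrays that share RNA and array between the genes. Pdgfra and Olig2 deviated in opposite directions (r = -0.73), and with WT day 3 replicate 2 left out r was -0.51. Olig1 and Olig2 deviated together with r = 0.49, and 0.54 without that array. Gpr17 and Olig1 had 0.34, and 0.58 without that array. Sox10 and Nkx2-2 had 0.44, and 0.50 without that array. The values of 0.71 between Gpr17 and Olig2 and 0.69 between Gpr17 and Nkx2-2 came down to 0.31 and 0.11 without it.

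Among all tested genes, the patterns most like those of the members over the 34 arrays were described by Pearson r. Cspg4 was closest to Dtx4 (0.955), Decr1 (0.953) and Cdkn2c (0.952), and Pdgfra to Nucb2 (0.907), Klf3 (0.899) and Dek (0.896). Gpr17 was closest to Kctd14 (0.955), Mmd2 (0.953) and Rlbp1 (0.937), and Sox11 to Csf1 (0.937), Rps15 (0.937) and Clec4d (0.936). The 4 lineage factors, which moved less, had looser neighbours. Olig1 came nearest to Adgrb2 (0.784), Olig2 to Ipo7 (0.844), Sox10 to Prr5l (0.847) with the myelin glycoprotein gene Mag in the third place (0.783), and Nkx2-2 to Ash2l (0.763).

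Most of the other precursor genes were lower on day 1. Of 21 tested, 14 were lower and 2 higher at day 1 in each genotype, where 27.3% of all genes fell in KO cords and 32.5% in WT cords. The median difference was -0.48 in KO cords and -0.46 in WT cords, beside -0.05 for all genes in both. At day 3, 4 were higher and 11 lower in KO cords (median -0.27 beside -0.06 for all genes) and 3 higher and 10 lower in WT cords (-0.21 beside -0.06), and without WT day 3 replicate 2 the WT count was 6 higher and 9 lower. Over all genes at day 3, 30.9% rose and 38.8% fell in KO cords, and 29.5% and 37.4% in WT cords. At day 7, 6 of the 21 were higher and 8 lower in KO cords, where 23.5% of all genes rose and 31% fell. In WT cords 7 were higher and 5 lower, where 25.8% of all genes rose and 33.3% fell, so the day 7 counts lay near these shares. The matrix proteoglycan gene Vcan rose by 1.71 ± 0.12 at day 3 in KO cords and 1.65 ± 0.13 in WT cords (largest adjusted p = 5.91e-12 in limma). Bcan, the gene of the brain-specific proteoglycan brevican, fell by 1.43 ± 0.13 in KO cords and by 1.21 ± 0.13 in WT cords at the same time. Ckap4, a membrane protein of the endoplasmic reticulum, rose by 1.62 ± 0.16 in KO cords and 1.36 ± 0.16 in WT cords at day 3. At day 7 the matrilin gene Matn4 rose by 1.57 ± 0.27 in KO cords and 1.65 ± 0.27 in WT cords, and the tenascin-R gene Tnr by 0.71 ± 0.13 in KO cords and 0.99 ± 0.13 in WT cords. At day 1 the endocytic adaptor gene Epn2 fell by 0.80 ± 0.11 in KO cords and by 0.42 ± 0.10 in WT cords.

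Genes of committed and newly formed oligodendrocytes were mixed at days 1 and 3 and mostly higher at day 7. Like the other gene lists, this one was chosen with earlier results of these data known, so its counts are a description. Of 16 tested, 9 were higher and 3 lower at day 7 in KO cords, with a median of 0.46 beside -0.06 for all genes, and 10 higher and 2 lower in WT cords, with a median of 0.63 beside -0.06. Over all genes, 23.5% rose and 31% fell at day 7 in KO cords, and 25.8% and 33.3% in WT cords. Between days 3 and 7, 13 of 16 rose and 0 fell in KO cords, where 19.3% of all genes rose, and 12 of 16 rose and 0 fell in WT cords, where 11% of all genes rose. Cnksr3 rose by 1.36 ± 0.11 in KO cords and 1.41 ± 0.11 in WT cords at day 7, and Itpr2, a calcium release channel gene that marks newly formed oligodendrocytes, by 1.24 ± 0.14 in KO cords and 1.59 ± 0.14 in WT cords. At day 7 the kinase gene Fyn rose by 0.70 ± 0.08 in KO cords and 0.86 ± 0.08 in WT cords, and Rras2 by 1.82 ± 0.20 in KO cords and 2.06 ± 0.20 in WT cords. Rras2 was already higher at day 1, by 1.68 ± 0.20 in KO cords and 1.91 ± 0.19 in WT cords. At day 3, Gpr37, a receptor of myelinating cells, fell by 1.11 ± 0.13 in KO cords and by 0.86 ± 0.13 in WT cords. Enpp6, an enzyme gene of newly formed oligodendrocytes, fell at day 3 by 0.90 ± 0.15 in KO cords and by 0.97 ± 0.16 in WT cords, and rose at day 7 by 0.39 ± 0.16 in KO cords and 0.37 ± 0.16 in WT cords.

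Mature myelin genes fell more often than they rose at each time, and most of them fell at day 3. Of 19 tested in KO cords, 9, 14 and 8 fell on days 1, 3 and 7, where 27.3%, 38.8% and 31% of all genes fell, and 4, 2 and 1 rose. In WT cords 9, 13 and 8 fell on these days, where 32.5%, 37.4% and 33.3% of all genes fell, and 4, 3 and 1 rose. The median differences on days 1, 3 and 7 were -0.34, -0.48 and -0.25 in KO cords and -0.22, -0.39 and -0.26 in WT cords, beside medians of all genes between -0.06 and -0.05. Opalin fell at day 3 by 1.26 ± 0.13 in KO cords and by 0.88 ± 0.14 in WT cords, and Cnp, a myelin phosphodiesterase gene, by 0.49 ± 0.07 in KO cords and 0.50 ± 0.07 in WT cords. Mal, a myelin proteolipid gene, fell at day 7 by 0.69 ± 0.09 in KO cords and by 0.66 ± 0.09 in WT cords. Apod, a lipid carrier gene that many cell types express, rose at day 3 by 0.56 ± 0.08 in KO cords and 0.64 ± 0.08 in WT cords, against this direction.

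Transcription partners of the lineage split. Of 25 tested, 7, 11 and 10 were higher and 7, 7 and 3 lower at days 1, 3 and 7 in KO cords, where 23.7%, 30.9% and 23.5% of all genes rose and 27.3%, 38.8% and 31% fell. In WT cords 9, 12 and 11 were higher and 6, 6 and 2 lower, where 27.1%, 29.5% and 25.8% of all genes rose and 32.5%, 37.4% and 33.3% fell. The medians lay between -0.09 and 0.23, beside -0.06 to -0.05 for all genes. Hes5, a Notch target that holds precursors undifferentiated, was not well above background in WT injured cords or in KO cords at days 1 and 3. It was at least 2.22-fold lower at days 1 and 3 in KO cords and at least 2.23-fold lower at each time in WT cords. At day 7 in KO cords, where it was above background on 1 of 4 arrays, it was at least 2.21-fold lower. Such a bound sets the brighter group against the background limit of log2 4. Id4, an inhibitor of helix-loop-helix factors, fell at day 1 by 1.26 ± 0.17 in KO cords and by 1.31 ± 0.16 in WT cords. Tcf7l2, a Wnt effector of differentiating oligodendrocytes, rose at day 7 by 1.62 ± 0.13 in KO cords and 1.5 ± 0.13 in WT cords. Sox4, the SoxC relative of Sox11, rose at day 7 by 1.34 ± 0.16 in KO cords and 1.35 ± 0.16 in WT cords, and Sox9 at day 1 by 0.56 ± 0.10 in KO cords and 0.89 ± 0.09 in WT cords.

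Ligands and receptors that act on precursors also split, with 9, 11 and 10 of 30 higher and 10, 8 and 8 lower at days 1, 3 and 7 in KO cords, and 13, 12 and 14 higher and 6, 6 and 5 lower in WT cords, to be read beside the same shares of all genes. Pdgfa, the ligand of Pdgfra, rose at day 1 by 0.31 ± 0.10 in KO cords and 0.30 ± 0.09 in WT cords, and its differences at day 3 were 0.02 ± 0.09 in KO cords and -0.00 ± 0.10 in WT cords. Tgfbr1, the type I TGF-beta receptor, rose at day 7 by 1.96 ± 0.09 in KO cords and 2.07 ± 0.09 in WT cords. The chemokine gene Cxcl1 was at least 9.97-fold higher at day 1 in KO cords and at least 6.16-fold higher in WT cords. Cysltr1, a leukotriene receptor, was at least 2.74-fold higher at day 7 in KO cords and at least 3.22-fold higher in WT cords. P2ry12, a purine receptor best known from microglia, fell at day 1 by 3.46 ± 0.32 in KO cords, where 3 of 4 arrays were above background, and by 2.80 ± 0.31 in WT cords (largest adjusted p = 1.42e-08 in limma). Without KO sham replicate 2, the count at day 7 in KO cords was 9 higher and 5 lower. Microglia and macrophage markers, which mark cells that carry several of these receptors and ligands, rose in the same samples. Of 12, 10, 12 and 12 rose on days 1, 3 and 7 in KO cords, where 23.7%, 30.9% and 23.5% of all genes rose. In WT cords 11, 12 and 12 of these markers rose, where 27.1%, 29.5% and 25.8% of all genes did. Their mean was 11.67 to 11.77 in KO day 7 arrays, against 6.18 to 6.78 in KO sham, and 11.46 to 11.88 in WT day 7 arrays, against 6.79 to 6.88 in WT sham, and their part in these changes was not tested.

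No gene of these 5 lists passed between KO and WT at any time with all arrays. Without WT day 3 replicate 2, 2 ligand and receptor genes were lower in KO than in WT cords at day 1, the TGF-beta receptor gene Tgfbr1 (-0.29 ± 0.07, adjusted p = 0.0251 in limma) and the FGF receptor gene Fgfr2 (-0.29 ± 0.07, adjusted p = 0.0393). With all arrays their adjusted p was 0.149 for Tgfbr1 and 0.486 for Fgfr2.

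**Figure D4:**
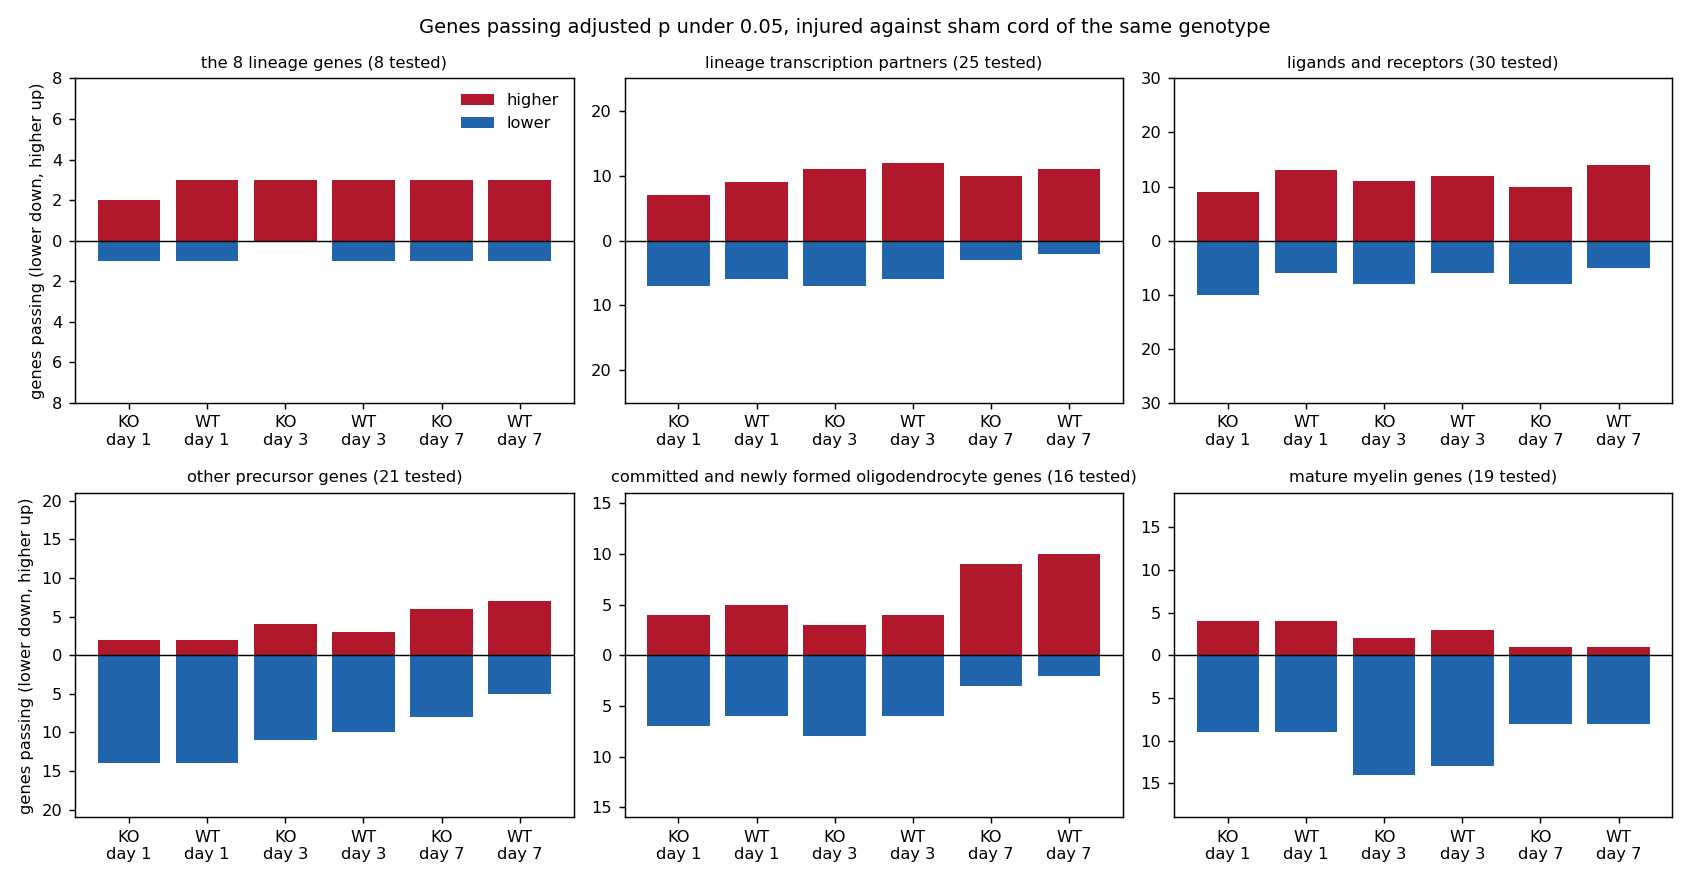
Number of genes that passed the adjusted p threshold in each of 6 groups of genes, higher drawn upwards and lower downwards, for injured against sham cord of the same genotype, KO left of WT at each time. Of the 19 mature myelin genes, 14 (KO) and 13 (WT) are in the lower bars at day 3, and 9 of 16 (KO) and 10 of 16 (WT) committed oligodendrocyte genes are in the higher bars at day 7.

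Markers of other cells that carry the members' transcripts moved in the same samples, and their part in the results was not tested. Of 10 pericyte and mural markers, 5 rose and 0 fell at day 3 and 2 rose and 1 fell at day 7 in KO cords, and 8 rose at day 3 and 5 at day 7 in WT cords, with 0 lower. Over all genes, 30.9% rose and 38.8% fell at day 3 in KO cords, and 23.5% and 31% at day 7. In WT cords 29.5% rose and 37.4% fell at day 3, and 25.8% and 33.3% at day 7. Both pericyte counts at day 7 in KO cords were below these shares. The pericyte and mural mean ran from 8.13 to 8.94 in KO day 3 arrays, against 7.27 to 7.71 in KO sham arrays, and from 8.54 to 8.85 in WT day 3 arrays, against 6.86 to 7.22 in WT sham arrays. Of 13 fibroblast markers, beside the same shares of all genes, 9 rose at day 3 and 11 at day 7 in KO cords, and 7 and 12 in WT cords, with 1 lower each time. Their mean ran from 8.79 to 10.76 in KO day 3 arrays, against 5.82 to 8.33 in KO sham, and from 8.90 to 9.99 in WT day 3 arrays, against 5.64 to 8.42 in WT sham. These stand beside Cspg4 and Pdgfra.

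Beside Sox10, 3 of 8 Schwann cell and nerve root markers rose at day 1 in KO cords and 7 of 8 in WT cords, with means from 6.71 to 7.62 in KO day 1 arrays, against 5.45 to 7.41 in KO sham, and from 7.25 to 7.88 in WT day 1 arrays, against 5.51 to 5.71 in WT sham. At day 1, 23.7% of all genes rose in KO cords and 27.1% in WT cords. Beside Sox11, 4 of 9 immature neuron markers rose and 3 fell at day 1 in both genotypes. All 11 of 11 neuron markers fell at day 3 in both genotypes. At day 1, 3 of 11 fell in KO cords, near the share of all genes, and 8 of 11 in WT cords. Over all genes, 27.3% fell at day 1 and 38.8% at day 3 in KO cords, and 32.5% and 37.4% in WT cords. Immature neuron markers averaged 10.85 to 10.96 in KO day 1 arrays, against 11.00 to 11.10 in KO sham, and 10.83 to 10.99 in WT day 1 arrays, against 11.12 to 11.16 in WT sham. Of 13 proliferation genes, 5, 13 and 12 rose on days 1, 3 and 7 in KO cords, and 12, 13 and 12 in WT cords. The shares of all genes that rose were 23.7%, 30.9% and 23.5% in KO cords and 27.1%, 29.5% and 25.8% in WT cords. Between genotypes, 8 of the 13 proliferation genes were lower in KO than in WT cords at day 1, where 0.667% of all genes were. This list was chosen with earlier results of these data known, so the count is a description, and a tie to the members was not tested. Sox4 and Dlx2 belong both to the transcription partners and to the immature neuron markers, and Pdgfrb both to the ligands and receptors and to the pericyte markers.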

How the data were processed

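The authors deposited log2 probe set values. The submitters' processing notes name GCRMA without a version. The values lay between 2.17 and 15.9 (array medians 4.14 to 4.39) and were used unchanged. RNA was extracted with Trizol and 1 ug was labelled, per the labels' protocols. Of 45101 probe sets, 34945 had 1 symbol in the platform annotation, 932 had several and 9160 had none, and 34754 found their Entrez ID in a RefSeq table of GRCm38.p6, used for names. Each of 18193 genes was read from its brightest probe set, and tests ran on the 11993 that exceeded log2 4 on 4 or more arrays. The array files name no genome build.

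Group means of all 8 groups were fitted in limma 3.58.1 (lmFit and eBayes, R 4.3.3), with Benjamini-Hochberg adjustment over all tested genes and a threshold of 0.05. Log2 differences are given ± their standard error. The fit was tested on simulated data. Alternatives changed the probe set rule, filter, centring, fit, weights and arrays. The members and gene lists were chosen with earlier results of these data known. All members were named, then, per lineage list and injury or genotype comparison, the 3 called genes of lowest p at most, and the 3 genes most like each member. A gene so named may be given at the same time in the other genotype. Pdgfa, the day 7 values of Enpp6 and the genotype differences of Tgfbr1 and Fgfr2 fall outside that rule and were chosen after their values were seen.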

Additional observations from a re-analysis of the deposited data

Results flagged for a closer look

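In 64 groups of values examined, 6 values stood apart from the other arrays of their group by Dixon's criterion, where chance gives about 1 in 20. Of these, 3 are in WT day 3 replicate 2. There Gpr17 read 2.59, beside 8.66 to 9.21 in the other arrays of the group, Olig2 read 7.97, beside 8.79 to 8.95, and Nkx2-2 read 7.07, beside 7.93 to 8.02. In the same array Pdgfra, at 10.68, was the highest of its group without meeting the criterion. This array had the lowest weight of all, 0.084, and its endothelial markers averaged 8.69, beside 7.77 to 8.15 in the other 3 arrays, while its neuron markers averaged 11.26, beside 11.51 to 11.79. Whether these bear on the 3 low values was not tested.

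The remaining 3 are small. Gpr17 read 7.41 in WT sham replicate 2, beside 8.0 to 8.11. Nkx2-2 read 7.69 in WT sham replicate 1, beside 7.51 to 7.54, and 7.64 in WT day 7 replicate 2, beside 7.54 in the other 3 arrays of that group.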

How the results depend on the processing

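Of 136 member differences, 105 kept their call and 31 changed it under at least 1 of 47 other settings, 34 of which left out 1 array each. Among differences that passed under either setting, the 1 that changed sign was Gpr17 at day 3 in WT cords, at -0.52 with all arrays (-1.13 to 1.07 on leaving out 1 array in turn), 1.07 without WT day 3 replicate 2, 1.07 without that array and KO sham replicate 2 (chosen after seeing the data) and 1.09 with array weights. Of the differences that passed under neither, Gpr17 between KO and WT cords at day 3 was 1.21 with all arrays and -0.38 without WT day 3 replicate 2, and its genotype difference in the day 3 response was 1.20 and -0.40. Calls between KO and WT, and of the genotype difference in the injury response, stayed at 0 of 8 in every setting. For day 7 minus day 3 in KO cords, 2 members passed, 4 with the mean of all probe sets of a gene 1 with only the compared groups in the fit and 1 without KO day 3 replicates 3 and 4 (chosen after seeing the data). For day 7 minus day 3 in WT cords, 0 passed, 1 with the mean of probe sets, 2 with array weights and 1 without both arrays. For WT day 1 minus sham, 4 passed, and 7 with array weights. For WT day 3 minus day 1, 5 passed, 2 with only the compared groups and 3 with the replicate block. The cause of these moves was not tested.

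Leaving out 1 array in turn gave 2 to 4, 3 to 4 and 4 to 5 calls at days 1, 3 and 7 in KO cords against sham, and 2 to 5, 3 to 5 and 2 to 5 in WT cords. The 2 came without WT sham replicate 2 at day 1 and without WT day 7 replicate 4 at day 7. Day 3 minus day 1 gave 4 to 6 in KO and 3 to 5 in WT cords, the 3 without WT day 1 replicate 5. Day 7 minus day 3 gave 1 to 3 in KO cords and 0 to 3 in WT cords, with 3 without WT day 3 replicate 4. Replicate numbers did not pair the samples: same-numbered arrays had a median correlation of 0.004 (-0.513 to 0.557) between their deviations from the group means, beside -0.015 for others. With the replicate block the count changed by over 1.5 times only for WT day 3 minus day 1. Low signal over background limits Gpr17 in 1 array and the second Pdgfra probe set.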
